A study of Mus musculus with 48 samples.

Results

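The 32 genes described here are direct targets of p53, taken by their mouse symbols from a list of genes that p53 is known to bind and regulate, with Trp53 itself, and they are 32 of the 47643 gene identifiers in the deposited count files. By role, 6 are listed under feedback and p53 itself, among them the noncoding RNA gene Pvt1. Another 5 are genes of DNA repair and nucleotide supply and 6 of cell cycle and growth. A further 5 belong to stress metabolism and 10 to death receptors and apoptosis. All 32 genes were chosen with earlier results of these data known. They were measured in organoids grown from the submandibular salivary gland of C57BL/6 mice aged 8-12 weeks, kept in Matrigel in a medium with Wnt3a, R-spondin1, EGF, FGF2, insulin, dexamethasone and the ROCK inhibitor Y27632, which all groups shared. On culture day 5 the organoids received 4, 7 or 15 Gy of photons, or 4, 7 or 15 Gy of protons in the plateau of the beam, or no radiation, and they were collected 2 or 6 days later. Photon and proton irradiation took place on separate days, and each radiation type and collection day has its own unirradiated control, which makes 16 groups of 3 mice and 48 libraries. The matching control is therefore the reference of every change below, and photons and protons are compared only through those changes. The labels name no genotype, transgene or drug that separates the groups, and the organoids of each library come from 1 numbered mouse.

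The p53 protein is a transcription factor that cells hold at a low level through the ubiquitin ligase Mdm2, and DNA breaks release it from that control, largely without more of its own mRNA. Active p53 binds pairs of short half-sites in the DNA and switches on genes that restrain it again, halt the cell cycle, mend DNA, adjust metabolism or prime the cell for death. Salivary glands are damaged by radiotherapy of the head and neck, and organoids from the gland hold epithelial stem and progenitor cells.

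Matches to the p53 half-site were read in promoter windows from RefSeq (GRCm38.p6), from 250 bases before to 50 bases after each start, which exist for 25 of the 32 genes and were matched by symbol. Searched on both strands were the p53 half-site consensus of 10 bases, without mismatch, and pairs of half-sites at most 13 bases apart with at most 2 mismatches of the 20 bases, which may overlap a single half-site. A window of 9 of the 25 genes (36%) held a perfect half-site, as did 9.55% of the 27025 genes with a window of the same length, and 5 of the 25 (20%) held a pair, against 11.5% of all genes. A match describes letters only and is not shown to be a binding site, no match says only that these letters are not in the window, and the deposited counts refer to another build, GRCm39, per the submitters' processing notes. No match was found in the windows of Ak1, Ercc5, Eda2r and Psrc1, which rose after radiation, or of Plk3, which fell. Shown are stretches from 5 genes that hold a match, with the half-sites in capitals. Of these, Ccng1, Mdm2 and Polk rose after radiation. By the test described below, Trp53 fell in 1 and Sesn1 in 3 of the 12 dose comparisons, the only genes with a match that did. Ppm1d, not shown here, also held a perfect half-site. It passed in no comparison, though its libraries lay below all matching controls in 7 of the 12.
Ccng1 (chr11:40755442-40755501, minus strand): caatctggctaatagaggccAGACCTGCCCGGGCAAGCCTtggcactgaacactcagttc
Mdm2 (chr10:117710915-117710964, minus strand): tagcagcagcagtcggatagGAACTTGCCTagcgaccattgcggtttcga
Polk (chr13:96519378-96519437, minus strand): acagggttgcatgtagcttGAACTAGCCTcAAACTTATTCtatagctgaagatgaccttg
Trp53 (chr11:69580264-69580313, plus strand): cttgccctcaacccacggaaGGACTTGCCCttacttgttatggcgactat
Sesn1 (chr10:41887233-41887295, plus strand): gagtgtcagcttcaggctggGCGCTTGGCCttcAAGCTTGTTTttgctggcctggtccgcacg
Each stretch is written 5′ to 3′ on the strand of its gene and lies upstream of the annotated start, outside the transcribed part of that transcript. The Ccng1 pair has 1 mismatch and no gap and begins 195 bases before the start. The Polk pair has 1 mismatch and a gap of 1 base and begins 231 bases before 1 of its annotated starts. The Sesn1 pair has 2 mismatches and a gap of 3 bases and begins 186 bases before 1 of its annotated starts. For Polk and Sesn1 the match lies at the more downstream start, and the window of the more upstream start held no match. Mdm2 and Trp53 hold a single perfect half-site, 186 and 75 bases before the start.

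The libraries are of the QuantSeq 3′ type, which counts reads near the polyadenylated end of each mRNA, and hold between 314409 and 4745719 counts assigned to genes, with a median of 2952939. Markers of epithelium, basal duct and luminal duct were abundant as sums in every library, although the luminal markers Kit and Elf5 were at 0 in all libraries of some groups, Kit in the controls of both series and days, whereas the summed acinar markers reached 26.5 CPM (counts scaled to library size) at most, fibroblast markers 3.21 CPM, endothelial markers 2.06 CPM (Cdh5 at 0 in every library) and immune markers 12.1 CPM (Cd3e at 0 in every library). Of the 48 libraries 2 stood apart, both in the photon series. The 4 Gy photon library of mouse 3 at day 6 is the shallowest of all, with 314409 counts, and its mean correlation with the other libraries of its group was 0.844, the lowest of the 48. The photon control of mouse 3 at day 2 had the lowest such correlation of the other 15 groups, 0.927, and held the highest summed acinar markers. In that control Gadd45a stood at 7.79 CPM, against 23.3 and 21.3 CPM in mice 1 and 2, and Zmat3 at 301 CPM, against 143 and 188 CPM. Where leaving out either library changes a call of a gene described below, the value without it is given beside the call.

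Radiation raised a subset of the p53 targets at both collection days and with both radiation types, and more of them at 15 Gy than at 4 Gy. In all 12 dose comparisons, every irradiated library of cyclin G1 (Ccng1), the nucleotide kinase gene Ak1 and the repair gene Ercc5 lay above every matching control, and so it was for Mdm2 in 11 of the 12. These genes passed the test in 11 (Ccng1), 10 (Ak1), 8 (Ercc5) and 8 (Mdm2) of the comparisons. The share of all genes whose libraries separate from the controls in this way was not counted. Such separations, here and below, therefore stand without a background. Of the 32 genes, 23 passed the test in at least 1 dose comparison and 9 in none, while 29.7% of all 11635 genes tested passed in at least 1, and those that passed lower were Sesn1, Plk3 and Trp53. Changes are log2 fold changes with their standard error (SE), tested in edgeR (quasi-likelihood F-test, p adjusted by Benjamini and Hochberg over all genes), and a gene passed when its adjusted p was under 0.05. In a bulk library, more RNA of a gene per cell and a larger share of the cells that make it cannot be told apart.

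At day 2 after photons, 3 of the 32 genes were higher and none lower at 4 Gy, where 0.661% of all 11039 genes passed in either direction and 0.534% in the higher one. At 7 Gy 7 were higher and none lower, against 2.7% of all genes (1.56% higher), and at 15 Gy 8 were higher and 1 lower, against 4.96% (2.57% higher). The median change of the 32 genes was 0.38 at 4 Gy, 0.43 at 7 Gy and 0.49 at 15 Gy, while that of all genes lay between -0.03 and 0.02 in each of the 12 dose comparisons. At day 6 after photons, 4 genes were higher at 4 Gy, 7 at 7 Gy and 14 at 15 Gy, none lower, where 1.23%, 2.61% and 5.29% of all genes passed in either direction and 0.937%, 1.49% and 2.52% in the higher one. Their median change was 0.20, 0.45 and 0.57 at 4, 7 and 15 Gy. Without the shallow 4 Gy library of mouse 3 the day 6 counts were 6 higher at 4 Gy, 13 higher and 1 lower at 7 Gy and 18 higher and 1 lower at 15 Gy, with 1.65%, 4.33% and 8.97% of all genes passing. Without the control of mouse 3 that stood apart, the day 2 counts were 4 higher at 4 Gy, 9 higher at 7 Gy and 11 higher and 1 lower at 15 Gy, with 0.677%, 3.65% and 11.5% of all genes passing.

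After protons, 31 of the 32 genes could be tested, because Pidd1, which encodes a death-domain protein that activates caspase-2, was filtered for its low counts. At day 2, 2 genes were higher at 4 Gy, 5 at 7 Gy and 7 at 15 Gy, none lower, while 1.05%, 2.94% and 8.31% of all 10529 genes passed in either direction and 0.703%, 1.62% and 3.94% in the higher one. With the mouse number as a block, 4 and 8 genes passed at 4 and 7 Gy at day 2. At day 6, 2 genes were higher at 4 Gy, 12 were higher and 2 lower at 7 Gy, and 13 were higher and 3 lower at 15 Gy, while 1.56%, 12.1% and 24.2% of all 10810 genes passed in either direction and 1.13%, 5.49% and 11% in the higher one. Set beside the last of these, 41.9% of the tested p53 targets were higher at day 6 after 15 Gy protons. The targets were chosen with earlier results of these data known. A larger share among them than among all genes is therefore not independent support for a p53 response. The median change of the targets at 4, 7 and 15 Gy was 0.49, 0.35 and 0.42 at day 2, and 0.22, 0.34 and 0.44 at day 6. The counts at 4 Gy were the least firm, since leaving out 1 library brought each of the 4 down to 0 or 1.

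**Figure D1:**
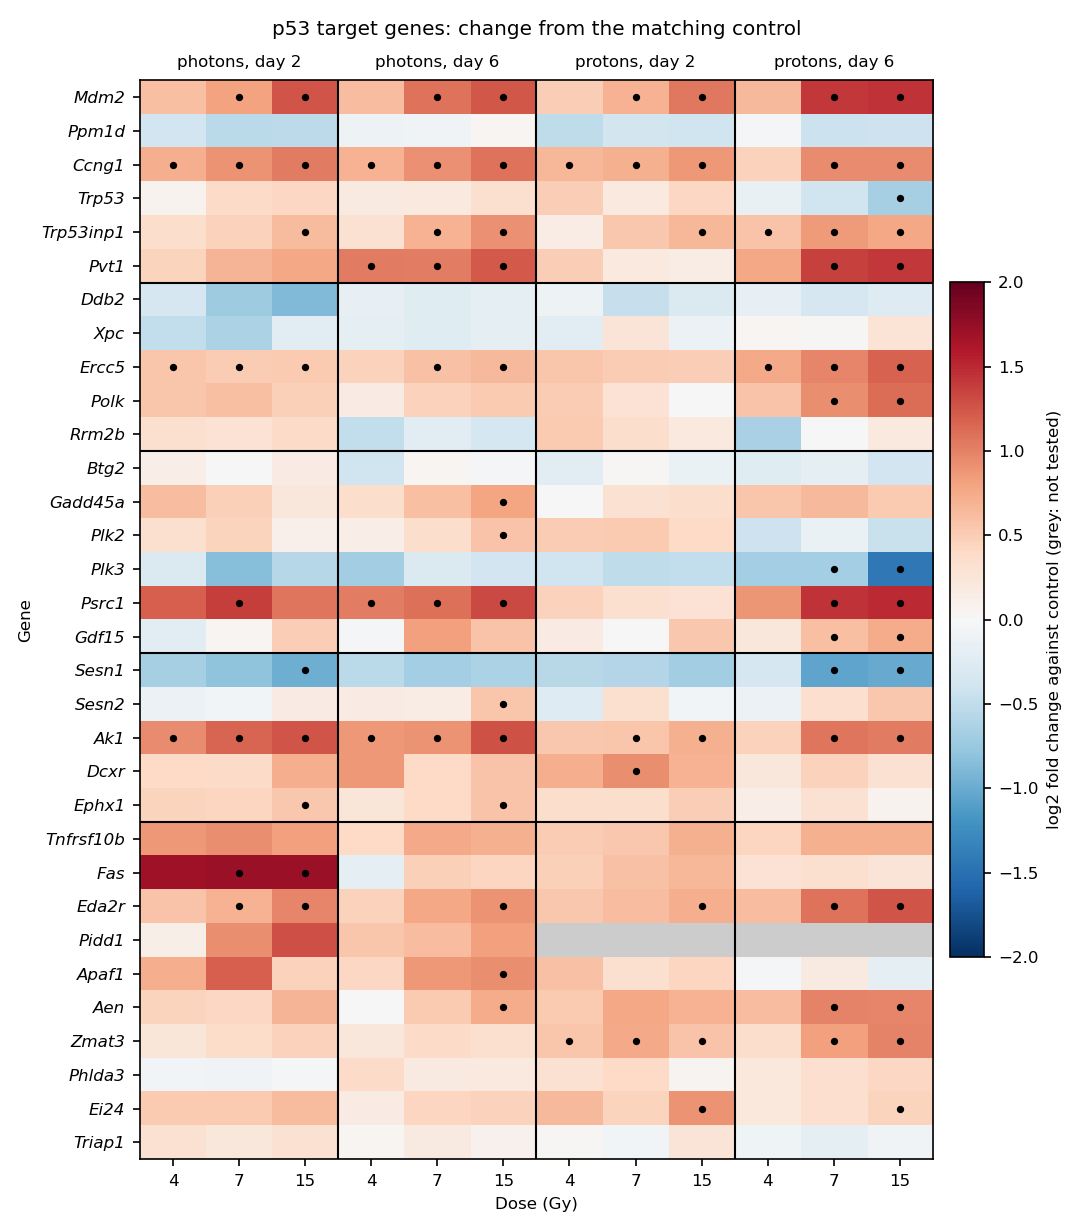
Change of each of the 32 p53 target genes from the matching control (colour, log2 fold change) by radiation type, day and dose in Gy (columns); lines divide the roles, a black dot marks an adjusted p under 0.05, and grey marks Pidd1, which was not tested after protons. Mdm2, Ccng1, Ak1, Eda2r and Trp53inp1 are red in every column block, and Sesn1, Plk3 and Ppm1d are mostly blue.

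**Figure D2:**
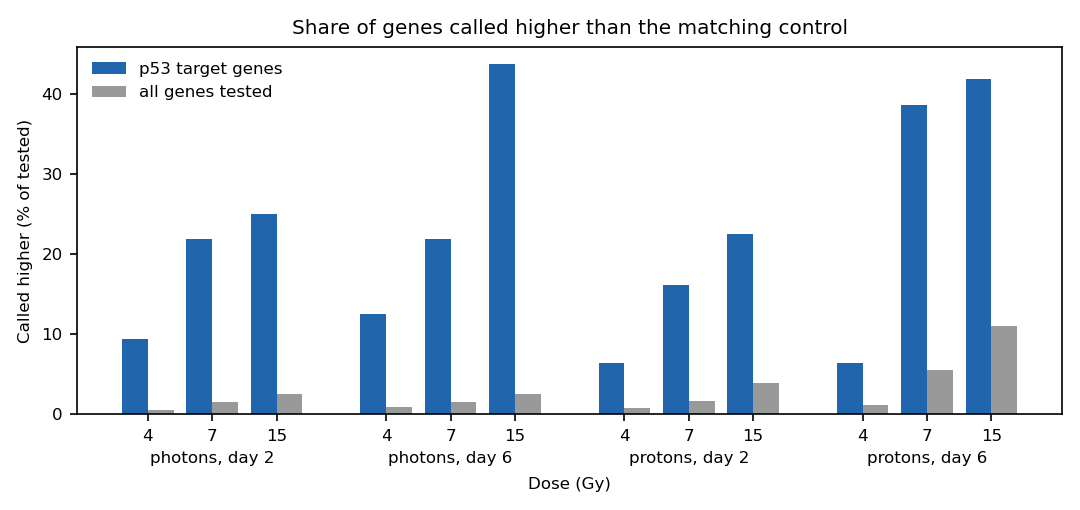
Percent of the tested p53 target genes that were higher at an adjusted p under 0.05 in each dose comparison, beside the same percent of all genes tested. The targets range from 6.45% to 43.8%, all genes from 0.534% to 11%. The targets were chosen with earlier results of these data known, so the gap is not independent support.

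In the group of feedback and p53 itself, Mdm2, Ccng1 and Trp53inp1 rose at 15 Gy in all 4 combinations of radiation type and day. Pvt1 rose at 15 Gy at day 6. Mdm2 encodes the ubiquitin ligase that marks p53 for destruction. Values are given as CPM in the order of mice 1, 2 and 3, scaled within the 12 libraries of a radiation type and day. At day 2 of the photon series Mdm2 stood at 157, 146 and 96.04 CPM in the controls, 204, 207 and 199 CPM after 4 Gy, 273, 198 and 226 CPM after 7 Gy and 327, 309 and 322 CPM after 15 Gy. At day 6 it stood at 147, 149 and 169 CPM in the controls, 248, 284 and 141 CPM after 4 Gy, 329.8, 349.9 and 303 CPM after 7 Gy and 376, 421 and 308 CPM after 15 Gy. All irradiated libraries lay above the controls except that of mouse 3 after 4 Gy at day 6, the shallow one. In the proton series the day 2 values of Mdm2 were 128, 135 and 118 CPM in the controls, 177, 185 and 173 CPM after 4 Gy, 230.0, 166 and 226 CPM after 7 Gy and 259, 261 and 276 CPM after 15 Gy. Its day 6 values were 154, 118 and 145 CPM in the controls, 268, 188 and 202 CPM after 4 Gy, 404, 454 and 263 CPM after 7 Gy and 444, 299.9 and 399.9 CPM after 15 Gy. Every irradiated proton library lay above the controls. The change at 15 Gy was 1.26 ± 0.17 at day 2 and 1.25 ± 0.19 at day 6 after photons (adjusted p = 0.000538 and 0.000937), and 1.06 ± 0.13 and 1.45 ± 0.20 after protons (adjusted p = 8.07e-05 and 6.7e-05). Mdm2 also rose at 7 Gy in all 4 combinations, by 0.70 to 1.42, and did not pass at 4 Gy in any, with changes of 0.49 to 0.65. Without the shallow library, the 4 Gy photon change at day 6 was 0.78 ± 0.13 and passed (adjusted p = 0.00382).

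Ccng1 encodes cyclin G1, which recruits a phosphatase to Mdm2 and so adds to the restraint of p53, and it passed in 11 of the 12 dose comparisons. At day 2 after photons it stood at 312, 262 and 255 CPM in the controls, 478, 419 and 469 CPM after 4 Gy, 519, 526 and 496 CPM after 7 Gy and 557, 554 and 591 CPM after 15 Gy. At day 6 the values were 263, 252 and 261 CPM in the controls, 442, 466 and 323 CPM after 4 Gy, 532, 475 and 457 CPM after 7 Gy and 536, 593 and 523 CPM after 15 Gy. The control libraries were close together and every irradiated library was above them. After protons Ccng1 stood at day 2 at 261, 261 and 260.3 CPM in the controls, 421, 391 and 432 CPM after 4 Gy, 458, 389.7 and 433 CPM after 7 Gy and 446, 484 and 497 CPM after 15 Gy, with the 3 controls nearly equal. Its day 6 values were 215, 236 and 252 CPM in the controls, 341, 294 and 330.5 CPM after 4 Gy, 449, 460.1 and 442 CPM after 7 Gy and 477, 375 and 495 CPM after 15 Gy. Again no irradiated library fell among the controls. The 15 Gy changes were 1.04 ± 0.12 and 1.09 ± 0.14 after photons and 0.87 ± 0.12 and 0.94 ± 0.13 after protons, at days 2 and 6 in that order, with adjusted p of at most 0.000328. At 4 Gy the changes that passed were 0.72 ± 0.12, 0.69 ± 0.15 and 0.67 ± 0.12, and the change at day 6 after 4 Gy protons was 0.46 ± 0.13 (adjusted p = 0.0878).

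Trp53inp1 encodes a nuclear protein that p53 induces and that strengthens p53 activity. In the photon series it measured 189, 227 and 171 CPM in the controls, 256, 225 and 265 CPM after 4 Gy, 314, 256 and 240.5 CPM after 7 Gy and 334, 270.4 and 308 CPM after 15 Gy at day 2. The day 6 measurements were 192, 222 and 145 CPM in the controls, 247, 232 and 189 CPM after 4 Gy, 317, 306 and 278 CPM after 7 Gy and 357, 357 and 334 CPM after 15 Gy. At 7 and 15 Gy all photon libraries of Trp53inp1 lay above the controls, and at 4 Gy they overlapped. In the proton series the values were 202, 178 and 205 CPM in the controls, 212, 167 and 271 CPM after 4 Gy, 283, 238 and 328 CPM after 7 Gy and 302, 286 and 336 CPM after 15 Gy at day 2. By day 6 they were 209, 209 and 202 CPM in the controls, 332, 313 and 273 CPM after 4 Gy, 411, 384 and 323 CPM after 7 Gy and 365, 352 and 342 CPM after 15 Gy. Here only the 4 Gy libraries of day 2 overlapped the controls. Trp53inp1 rose by 0.64 ± 0.15 and 0.91 ± 0.16 after 15 Gy photons and by 0.66 ± 0.16 and 0.77 ± 0.12 after 15 Gy protons (adjusted p = 0.0247, 0.00255, 0.0157 and 0.000194). It was also 1 of the 2 genes higher at day 6 after 4 Gy protons, by 0.56 ± 0.12 (adjusted p = 0.0199).

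Pvt1 is a long noncoding RNA gene next to Myc, and its counts were low. It is listed in this group, and a feedback role of Pvt1 was not tested. Photon libraries at day 2 held 9.65, 6.36 and 7.27 CPM in the controls, 14.04, 9.66 and 8.59 CPM after 4 Gy, 14.01, 10.8 and 13.2 CPM after 7 Gy and 12.6, 13.95 and 14.04 CPM after 15 Gy. At day 6 Pvt1 read 6.97, 7.65 and 7.10 CPM in the controls, 13.5, 16.8 and 7.43 CPM after 4 Gy, 14.9, 14.7 and 14.2 CPM after 7 Gy and 18.9, 17.5 and 14.6 CPM after 15 Gy. Controls of day 6 were tight, and the 7 and 15 Gy libraries lay well above them. Proton libraries at day 2 held 3.76, 6.22 and 9.39 CPM in the controls, 4.51, 11.8 and 9.97 CPM after 4 Gy, 6.30, 6.97 and 7.85 CPM after 7 Gy and 8.22, 5.97 and 6.88 CPM after 15 Gy. Those of day 6 held 5.49, 5.91 and 6.87 CPM in the controls, 11.8, 9.07 and 10.7 CPM after 4 Gy, 16.6, 20.4 and 10.9 CPM after 7 Gy and 15.999, 9.93 and 23.04 CPM after 15 Gy. The proton groups overlapped at every dose at day 2 and at none at day 6. At day 6 Pvt1 rose after photons at 4, 7 and 15 Gy, by 1.03 ± 0.21, 1.02 ± 0.20 and 1.23 ± 0.20, and after protons at 7 and 15 Gy, by 1.37 ± 0.34 and 1.42 ± 0.35 (adjusted p = 0.022, 0.0105, 0.00151, 0.0138 and 0.00638). The 4 Gy photon call of Pvt1 passed in 7 of the 12 fits that each left out 1 library, and not by DESeq2 (adjusted p = 0.0629). At day 2 after 15 Gy the changes of Pvt1 were 0.78 ± 0.25 with photons and 0.16 ± 0.37 with protons, and neither passed. Exons of Pvt1 overlap small RNA genes on the same strand and a pseudogene on the other, whose reads cannot be told apart from its own with certainty.

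**Figure D3:**
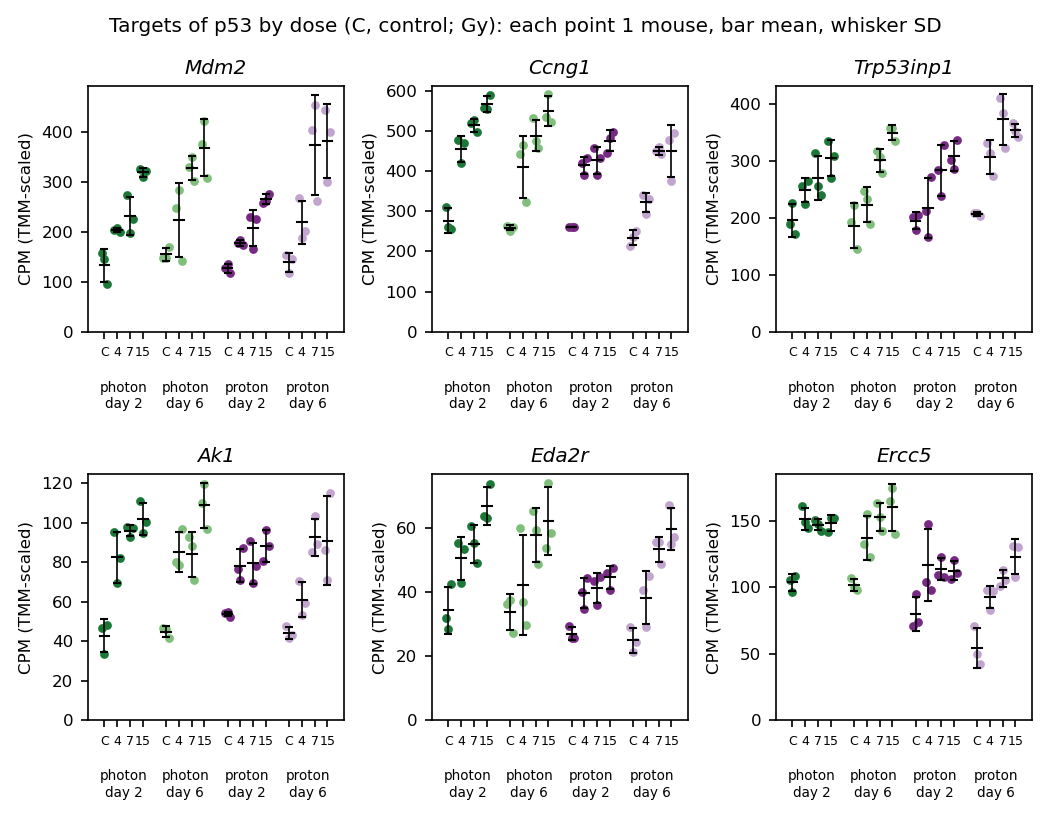
CPM of Mdm2, Ccng1, Trp53inp1, Ak1, Eda2r and Ercc5 in each library (points, 1 mouse each) with the group mean (bar) and SD (whisker), by dose (C, control; 4, 7 and 15 Gy), radiation type and day. In each block the 15 Gy points lie above the control points, as for Mdm2 at day 2 after photons, where controls reach 157 CPM and the 15 Gy libraries start at 309 CPM.

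Ppm1d, which encodes the phosphatase Wip1 that switches off ATM and p53, is another feedback gene, and it passed in no comparison, with values of 23.2 to 51.6 CPM over the 48 libraries. Its irradiated libraries lay below all matching controls in 7 of the 12 dose comparisons and above them in none. The 15 Gy changes were -0.52 ± 0.19 and 0.04 ± 0.17 after photons and -0.40 ± 0.16 and -0.41 ± 0.17 after protons, and the lowest adjusted p of the 12 was 0.0793. Trp53, the gene of p53 itself, passed once. After photons its values were 24.7, 26.2 and 31.7 CPM in the controls, 32.4, 20.97 and 32.1 CPM after 4 Gy, 41.3, 35.3 and 29.8 CPM after 7 Gy and 42.2, 26.7 and 41.1 CPM after 15 Gy at day 2. At day 6 they were 29.8, 24.8 and 26.4 CPM in the controls, 28.6, 31.7 and 40.9 CPM after 4 Gy, 32.5, 29.9 and 31.7 CPM after 7 Gy and 32.4, 36.4 and 32.4 CPM after 15 Gy. Photon groups overlapped their controls at every dose at day 2 and at 4 Gy at day 6, and lay above them at 7 and 15 Gy at day 6. After protons Trp53 read 26.7, 19.98 and 40.01 CPM in the controls, 47.7, 20.3 and 54.6 CPM after 4 Gy, 37.8, 26.4 and 34.6 CPM after 7 Gy and 45.4, 36.1 and 33.6 CPM after 15 Gy at day 2. The proton libraries of day 6 read 39.5, 42.6 and 45.99 CPM in the controls, 32.8, 43.6 and 38.4 CPM after 4 Gy, 33.3, 33.2 and 30.9 CPM after 7 Gy and 35.6, 22.9 and 21.7 CPM after 15 Gy. At day 2 the proton controls alone ran from 19.98 to 40.01 CPM and every dose overlapped them, whereas at day 6 the 7 and 15 Gy libraries all lay below the controls. The change at 15 Gy protons, day 6, was -0.67 ± 0.19 (adjusted p = 0.0165), and it fell short of the threshold without control mouse 3, 15 Gy mouse 2 or 15 Gy mouse 3, and when libraries were scaled by their size alone (adjusted p = 0.0600). The other 11 changes of Trp53 ran from -0.40 to 0.49.

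Among the repair genes, Ercc5 rose in 8 of the 12 dose comparisons and Polk in 2, while Ddb2, Xpc and Rrm2b passed in none. Ercc5 encodes XPG, the endonuclease that cuts on the 3′ side of a lesion in nucleotide excision repair. At day 2 after photons it stood at 106, 96.5 and 109 CPM in the controls, 161, 149 and 145 CPM after 4 Gy, 150.4, 148 and 142 CPM after 7 Gy and 141, 152 and 152 CPM after 15 Gy. Its values at day 6 were 107, 99.9 and 97.99 CPM in the controls, 133, 155 and 123 CPM after 4 Gy, 163, 153 and 142 CPM after 7 Gy and 165, 175 and 140.0 CPM after 15 Gy. The photon doses overlapped one another, and all lay above the controls. In the proton series Ercc5 stood at 71.1, 94.6 and 73.6 CPM in the controls, 104, 147 and 97.6 CPM after 4 Gy, 109, 123 and 108 CPM after 7 Gy and 106, 120.1 and 110.5 CPM after 15 Gy at day 2. At day 6 its level was 70.9, 49.7 and 42.3 CPM in the controls, 97.7, 82.7 and 96.8 CPM after 4 Gy, 101, 113 and 106 CPM after 7 Gy and 131, 108 and 130.0 CPM after 15 Gy. With culture time Ercc5 fell in the proton controls, day 6 against day 2, by 0.63 ± 0.18 (adjusted p = 0.0133), and every irradiated proton library lay above the controls of its day. At 15 Gy the changes were 0.52 ± 0.11 and 0.65 ± 0.13 after photons (adjusted p = 0.0136 and 0.00617), 0.50 ± 0.16 at day 2 after protons, which did not pass (adjusted p = 0.0666), and 1.17 ± 0.17 at day 6 (adjusted p = 7.62e-05). At 4 Gy Ercc5 passed at day 2 after photons, by 0.55 ± 0.11, and at day 6 after protons, by 0.76 ± 0.17. The change of Ercc5 at day 6 after 4 Gy photons was 0.46 ± 0.13 (adjusted p = 0.158). Without the shallow library it was 0.50 ± 0.12 and passed (adjusted p = 0.0408). The call at day 2 after 4 Gy photons passed in 2 of the 12 fits that each left out 1 library, and not with the mouse number as a block (adjusted p = 0.0869).

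Polk encodes polymerase kappa, which copies past damaged bases. Photon libraries of day 2 read 37.8, 34.02 and 32.7 CPM in the controls, 49.3, 52.7 and 52.02 CPM after 4 Gy, 49.8, 51.97 and 57.05 CPM after 7 Gy and 36.7, 48.5 and 60.3 CPM after 15 Gy. Photon libraries of day 6 read 52.9, 47.3 and 49.7 CPM in the controls, 55.3, 52.9 and 78.01 CPM after 4 Gy, 62.4, 60.5 and 83.5 CPM after 7 Gy and 75.9, 65.9 and 74.2 CPM after 15 Gy. All groups but the 15 Gy group of day 2 lay above their controls, and none of the 6 photon changes, 0.17 to 0.60, passed. Without the shallow library the change at day 6 after 15 Gy photons was 0.51 ± 0.13 and passed (adjusted p = 0.0201). Proton libraries of day 2 read 25.9, 31.5 and 36.1 CPM in the controls, 37.2, 46.3 and 48.6 CPM after 4 Gy, 32.3, 37.8 and 42.1 CPM after 7 Gy and 33.2, 29.2 and 29.8 CPM after 15 Gy. Proton libraries of day 6 read 14.5, 21.3 and 30.7 CPM in the controls, 29.2, 34.9 and 33.9 CPM after 4 Gy, 42.996, 46.3 and 36.95 CPM after 7 Gy and 53.7, 44.5 and 44.7 CPM after 15 Gy. The 7 and 15 Gy libraries of day 6 stood clear of the controls, and Polk rose by 0.92 ± 0.21 and 1.11 ± 0.21 there (adjusted p = 0.0076 and 0.001). At day 2 after 15 Gy protons its change was -0.01 ± 0.17. Ddb2 and Xpc encode damage sensors of nucleotide excision repair, and Rrm2b a ribonucleotide reductase subunit that supplies nucleotides outside S phase. Ddb2 ran from 2.49 to 10.4 CPM and its 12 changes were all negative, -0.88 to -0.11, with a lowest adjusted p of 0.14. Xpc ran from 21.8 to 130.0 CPM, the highest value in the shallow library, with changes from -0.63 to 0.27. Rrm2b ran from 4.05 to 22.3 CPM, with changes from -0.65 to 0.52. Reads of Ddb2 and Rrm2b could include those of genes on the other strand, since no source used here gives the strand setting of the counting.

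In the cell cycle group, Psrc1 was the gene most often higher and Plk3 the one that fell. Psrc1 encodes a microtubule-binding protein of the mitotic spindle that p53 induces. After photons it stood at 22.7, 17.2 and 7.79 CPM in the controls, 42.4, 32.3 and 38.5 CPM after 4 Gy, 44.3, 32.2 and 52.7 CPM after 7 Gy and 32.2, 26.2 and 45.9 CPM after 15 Gy at day 2. At day 6 it read 20.9, 18.5 and 18.7 CPM in the controls, 38.98, 44.1 and 18.6 CPM after 4 Gy, 52.5, 43.5 and 30.7 CPM after 7 Gy and 46.3, 58.1 and 40.7 CPM after 15 Gy. Apart from the shallow library, all irradiated photon libraries exceeded the controls. After protons it stood at 18.8, 19.1 and 25.2 CPM in the controls, 35.7, 22.4 and 28.6 CPM after 4 Gy, 32.3, 22.9 and 24.98 CPM after 7 Gy and 25.4, 29.2 and 21.8 CPM after 15 Gy at day 2. By day 6 it read 8.99, 10.6 and 15.9 CPM in the controls, 24.7, 18.8 and 22.3 CPM after 4 Gy, 35.7, 34.3 and 26.96 CPM after 7 Gy and 38.04, 25.3 and 36.1 CPM after 15 Gy. Proton groups overlapped at day 2 and separated at every dose at day 6. Psrc1 rose by 1.32 ± 0.21 at day 6 after 15 Gy photons and by 1.49 ± 0.24 at day 6 after 15 Gy protons (adjusted p = 0.00178 and 0.000253), and its day 2 changes at 15 Gy were 1.07 ± 0.31 and 0.29 ± 0.21, neither past the threshold. At 7 Gy it passed at day 2 after photons, by 1.38 ± 0.31, and at day 6 after both. Of 8 markers of dividing cells, 1 (Mki67, -1.61 ± 0.32) was lower at day 6 after 15 Gy photons and 2 (Cdk1, -1.33 ± 0.28, and Aurkb, -1.70 ± 0.38) after 15 Gy protons, and none higher. Their summed level was 202 to 262 CPM in the photon controls of day 6 and 111 to 162 CPM after 15 Gy, and 339 to 478 and 159 to 468 CPM in the proton series. The 4 basal duct markers summed to 6117 to 7194 CPM in the proton controls of day 6 and to 2883 to 3989 CPM after 15 Gy, and in the photon series to 4861 to 5690.4 and 3839 to 4318 CPM. What part these shifts have in any change of day 6 was not tested.

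Of the polo-like kinase genes, whose products respond to genotoxic stress, Plk2 passed as higher after photons and Plk3 as lower after protons. At day 6 after 15 Gy protons the changes of Plk2 and Plk3 were each negative. Plk2 in the photon series stood at 48.8, 59.8 and 43.1 CPM in the controls, 55.6, 78.4 and 57.2 CPM after 4 Gy, 59.5, 75.6 and 71.7 CPM after 7 Gy and 59.6, 43.9 and 60.9 CPM after 15 Gy at day 2. On day 6 it stood at 81.8, 78.3 and 83.5 CPM in the controls, 85.2, 90.1 and 100.3 CPM after 4 Gy, 98.96, 103 and 109 CPM after 7 Gy and 129, 97.6 and 137 CPM after 15 Gy. The 3 photon controls of day 6 lay within 78.3 to 83.5 CPM, below every irradiated library of that day. In the proton series it stood at 51.5, 47.1 and 60.3 CPM in the controls, 90.6, 57.8 and 78.05 CPM after 4 Gy, 80.3, 69.2 and 77.8 CPM after 7 Gy and 86.1, 66.3 and 56.6 CPM after 15 Gy at day 2. On day 6 the level was 158, 196 and 214 CPM in the controls, 111, 155 and 157 CPM after 4 Gy, 151, 181 and 188 CPM after 7 Gy and 175, 122 and 118 CPM after 15 Gy. Plk2 rose at day 6 after 15 Gy photons, by 0.57 ± 0.13 (adjusted p = 0.0174), whereas the proton change was -0.45 ± 0.17 with overlapping libraries (adjusted p = 0.0681). The photon call passed in 8 of the 12 fits that each left out 1 library. Plk3 measured 39.5, 36.1 and 32.2 CPM in the proton controls of day 6, 21.5, 25.3 and 20.5 CPM after 7 Gy and 14.2, 12.3 and 13.4 CPM after 15 Gy, with no overlap. It fell by 0.68 ± 0.18 at 7 Gy and by 1.43 ± 0.20 at 15 Gy (adjusted p = 0.0215 and 6.28e-05), the second in all 12 fits that each left out 1 library. In the other libraries Plk3 ran from 5.19 to 27.6 CPM, and its other 10 changes were all negative, -0.85 to -0.28, without passing. An exon of Plk3 overlaps the gene Tctex1d4 on the other strand.

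Gadd45a, a growth arrest gene that p53 switches on after DNA damage, ran from 7.79 to 102 CPM and rose once, by 0.78 ± 0.19 at day 6 after 15 Gy photons (adjusted p = 0.0271), from 23.3, 17.6 and 32.4 CPM in the controls to 45.99, 45.3 and 36.96 CPM. At day 6 after 15 Gy protons the libraries held 102, 56.2 and 41.95 CPM against 38.96, 45.5 and 54.98 CPM, a change of 0.53 ± 0.24 with overlapping groups. An exon of Gadd45a overlaps a transcript on the other strand. The day 2 change after 15 Gy photons was 0.22 ± 0.28, and -0.09 ± 0.18 without the control that stood apart, a change of sign with neither value past the threshold. Gdf15, a secreted stress cytokine of the TGF-beta family, rose at day 6 after 7 and 15 Gy protons, by 0.59 ± 0.19 and 0.74 ± 0.19 (adjusted p = 0.0445 and 0.00782), from 35.96, 36.1 and 33.3 CPM in the controls to 69.4, 48.6 and 57.1 CPM at 15 Gy. With the mouse number as a block the 7 Gy change did not pass (adjusted p = 0.052). The 15 Gy photon changes were 0.50 ± 0.28 at day 2 and 0.57 ± 0.24 at day 6, and without the day 2 control that stood apart the first was 0.87 ± 0.25 and passed (adjusted p = 0.0357). The change of Gdf15 at day 6 after 7 Gy photons was 0.81 ± 0.24 (adjusted p = 0.0984). It was 0.83 ± 0.20 without the shallow library and passed (adjusted p = 0.0298). Btg2, an antiproliferative gene whose product promotes mRNA decay, ran from 127 to 452 CPM and overlapped its controls in all 12 comparisons, with changes from -0.40 to 0.17.

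Of the metabolic genes, Ak1 rose in 10 of the 12 dose comparisons and Sesn1 fell in 3. Ak1 encodes adenylate kinase, which balances ATP, ADP and AMP. The day 2 photon libraries held 46.8, 33.3 and 48.3 CPM in the controls, 95.4, 69.5 and 82.2 CPM after 4 Gy, 97.8, 92.8 and 97.1 CPM after 7 Gy and 111, 94.8 and 100.3 CPM after 15 Gy. The day 6 photon libraries held 46.8, 45.9 and 41.8 CPM in the controls, 80.03, 78.7 and 96.6 CPM after 4 Gy, 92.5, 88.3 and 70.97 CPM after 7 Gy and 109.8, 119.5 and 96.8 CPM after 15 Gy. After any dose the level was well above the controls. The day 2 proton libraries held 54.1, 54.6 and 52.4 CPM in the controls, 76.3, 70.8 and 87.2 CPM after 4 Gy, 90.6, 69.7 and 77.8 CPM after 7 Gy and 80.4, 96.2 and 87.9 CPM after 15 Gy. The day 6 proton libraries held 47.5, 41.4 and 43.3 CPM in the controls, 70.5, 53.4 and 59.1 CPM after 4 Gy, 85.3, 103 and 89.2 CPM after 7 Gy and 86.3, 70.9 and 115 CPM after 15 Gy. Here too all irradiated libraries exceeded all controls. At 15 Gy the changes were 1.25 ± 0.16 and 1.28 ± 0.13 after photons, and 0.72 ± 0.14 and 1.04 ± 0.18 after protons (adjusted p = 0.000374, 4.29e-05, 0.00339 and 0.000419), each in all 12 fits that left out 1 library. At 4 Gy Ak1 rose after photons by 0.95 ± 0.16 at day 2 and 0.86 ± 0.14 at day 6. After 4 Gy protons its changes of 0.54 ± 0.14 and 0.46 ± 0.18 did not pass. The Ak1 call at day 2 after 7 Gy protons, 0.55 ± 0.14 (adjusted p = 0.0463), passed in 3 of the 12 fits that each left out 1 library. It passed neither with library size alone as the scale (adjusted p = 0.0684) nor by DESeq2 (adjusted p = 0.0525).

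Ephx1 encodes microsomal epoxide hydrolase, which detoxifies reactive epoxides. Photon values were 73.5, 80.01 and 89.3 CPM in the controls, 124, 101 and 106 CPM after 4 Gy, 91.1, 111 and 124 CPM after 7 Gy and 116, 119 and 118 CPM after 15 Gy at day 2. Those of day 6 were 125, 118 and 106 CPM in the controls, 138, 140.2 and 126 CPM after 4 Gy, 158, 166 and 136 CPM after 7 Gy and 173, 182 and 165 CPM after 15 Gy. Every irradiated photon library of Ephx1 lay above its controls. Proton values were 67.7, 80.4 and 96.8 CPM in the controls, 109, 85.9 and 118 CPM after 4 Gy, 103, 112 and 97.1 CPM after 7 Gy and 106, 126 and 111 CPM after 15 Gy at day 2. The day 6 proton values were 107, 115 and 129 CPM in the controls, 124, 126 and 135 CPM after 4 Gy, 122, 154 and 156 CPM after 7 Gy and 109.9, 106 and 153 CPM after 15 Gy, and overlapped at each dose. Ephx1 rose after 15 Gy photons by 0.54 ± 0.14 at day 2 and 0.58 ± 0.12 at day 6 (adjusted p = 0.0439 and 0.00906), the first in 3 of the 12 fits that each left out 1 library and with an adjusted p of 0.0538 under the mouse block. Exons of Ephx1 overlap a pseudogene on the same strand. The change of Ephx1 at day 6 after 7 Gy photons was 0.40 ± 0.12 (adjusted p = 0.106). It was 0.41 ± 0.10 without the shallow library and passed (adjusted p = 0.0271). After 15 Gy protons its changes were 0.49 ± 0.15 and 0.07 ± 0.15. Dcxr, a reductase of sugars and reactive carbonyls, ran from 51.1 to 383 CPM and rose once, by 0.93 ± 0.23 at day 2 after 7 Gy protons (adjusted p = 0.0375), where the controls held 62.4, 51.1 and 65.7 CPM and the irradiated libraries 102, 162 and 78.1 CPM. Without the day 2 photon control that stood apart, the photon changes of Dcxr at day 2 were 0.85 ± 0.16, 0.83 ± 0.16 and 1.17 ± 0.16 at 4, 7 and 15 Gy and all passed, while with it they were 0.40 ± 0.25, 0.39 ± 0.25 and 0.73 ± 0.25 and none passed. That control held 114 CPM of Dcxr against 51.1 and 54.96 CPM in mice 1 and 2. The change of Dcxr at day 6 after 15 Gy photons was 0.57 ± 0.37 (adjusted p = 0.471). It was 0.58 ± 0.13 without the shallow library and passed (adjusted p = 0.00911).

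The sestrins, stress proteins that restrain mTORC1, were split. Sesn1 after photons stood at 28.1, 29.5 and 30.1 CPM in the controls, 16.9, 20.7 and 17.4 CPM after 4 Gy, 12.5, 18.9 and 19.02 CPM after 7 Gy and 9.26, 13.1 and 21.9 CPM after 15 Gy at day 2. Its photon values at day 6 were 21.3, 25.2 and 21.02 CPM in the controls, 17.7, 13.9 and 11.1 CPM after 4 Gy, 12.5, 14.5 and 14.5 CPM after 7 Gy and 18.5, 11.99 and 13.5 CPM after 15 Gy. All irradiated photon libraries of Sesn1 were below all their controls. After protons Sesn1 stood at 12.4, 18.2 and 16.8 CPM in the controls, 9.02, 13.6 and 8.67 CPM after 4 Gy, 6.30, 10.9 and 12.5 CPM after 7 Gy and 9.29, 8.80 and 11.1 CPM after 15 Gy at day 2. Its proton values at day 6 were 6.49, 20.7 and 23.3 CPM in the controls, 12.97, 12.2 and 14.1 CPM after 4 Gy, 6.93, 7.28 and 9.53 CPM after 7 Gy and 9.36, 7.88 and 7.57 CPM after 15 Gy. The proton control of mouse 1 at day 6, at 6.49 CPM, was as low as the irradiated libraries, and the other controls were above them all. Sesn1 fell by 0.98 ± 0.26 at day 2 after 15 Gy photons, and by 1.05 ± 0.33 and 1.00 ± 0.34 at day 6 after 7 and 15 Gy protons (adjusted p = 0.0476, 0.0469 and 0.0378). These calls passed in 3 of the 12, 3 of the 12 and 8 of the 12 fits that each left out 1 library, and none of the 3 with library sizes alone as the scale (adjusted p = 0.0772, 0.0897 and 0.0767). With the mouse number as a block the proton changes did not pass (adjusted p = 0.0576 and 0.055). Without the shallow library Sesn1 also passed as lower at day 6 after 7 and 15 Gy photons, at -0.67 ± 0.18 and -0.63 ± 0.18 (adjusted p = 0.0498 and 0.0409), where with it the adjusted p was 0.0778 and 0.0668. The changes of Sesn1 were negative in all 12 comparisons, -1.05 to -0.34. Sesn2 ran from 33.5 to 91.4 CPM and rose once, by 0.55 ± 0.13 at day 6 after 15 Gy photons (adjusted p = 0.0221), from 57.9, 48.6 and 64.8 CPM in the controls to 85.6, 84.6 and 83.4 CPM. At day 6 after 15 Gy protons its change was 0.54 ± 0.22 (adjusted p = 0.0807).

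**Figure D4:**
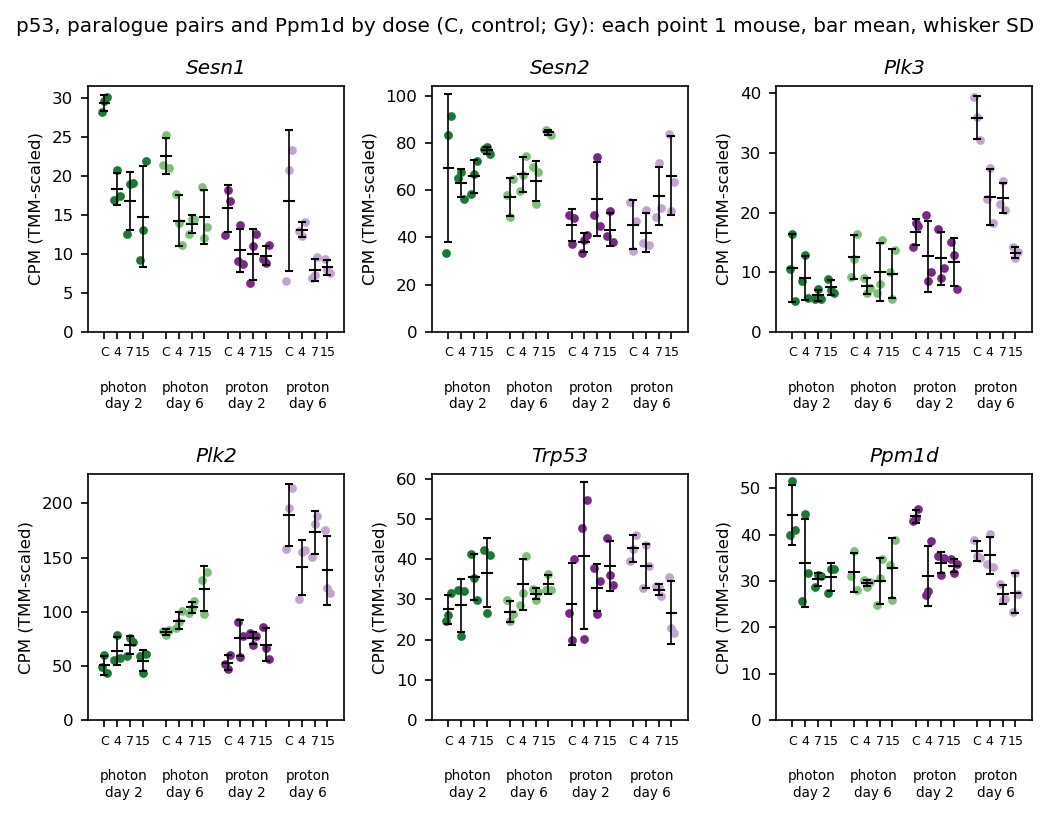
CPM of Sesn1, Sesn2, Plk3, Plk2, Trp53 and Ppm1d in each library (points, 1 mouse each) with the group mean (bar) and SD (whisker), by dose (C, control; 4, 7 and 15 Gy), radiation type and day. Sesn1 lies lower after each photon dose, and Plk3 steps down at day 6 after protons, from 32.2 to 39.5 CPM in the controls to 12.3 to 14.2 CPM at 15 Gy.

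Of the 10 genes of death receptors and apoptosis, Eda2r rose in 6 dose comparisons, Zmat3 in 5, Aen in 3, Ei24 and Fas in 2 and Apaf1 in 1, and 4 passed in none. Eda2r encodes a receptor of the tumour necrosis factor receptor family that binds ectodysplasin A2. Its photon libraries measured 31.8, 28.4 and 42.6 CPM in the controls, 55.3, 42.8 and 53.2 CPM after 4 Gy, 60.5, 55.3 and 48.9 CPM after 7 Gy and 63.7, 63.1 and 73.6 CPM after 15 Gy at day 2. They measured 36.4, 37.4 and 27.3 CPM in the controls, 59.8, 36.99 and 29.7 CPM after 4 Gy, 65.1, 59.3 and 48.7 CPM after 7 Gy and 53.8, 73.997 and 58.3 CPM after 15 Gy at day 6. The 7 and 15 Gy libraries all exceeded the controls, and the 4 Gy libraries did so at day 2. Its proton libraries measured 29.3, 25.8 and 25.7 CPM in the controls, 39.9, 34.8 and 44.2 CPM after 4 Gy, 43.3, 35.8 and 44.6 CPM after 7 Gy and 45.7, 40.5 and 47.4 CPM after 15 Gy at day 2. They measured 28.97, 21.3 and 24.3 CPM in the controls, 40.5, 28.96 and 45.003 CPM after 4 Gy, 55.5, 55.6 and 48.8 CPM after 7 Gy and 67.02, 54.8 and 57.1 CPM after 15 Gy at day 6. The 4 Gy libraries of day 6 overlapped the controls and all other proton groups lay above them. Eda2r rose at 15 Gy by 0.98 ± 0.17 and 0.90 ± 0.20 after photons and by 0.72 ± 0.16 and 1.26 ± 0.18 after protons (adjusted p = 0.00457, 0.0165, 0.00751 and 0.000111). Its call at day 2 after 7 Gy photons, 0.69 ± 0.17 (adjusted p = 0.0485), passed in 2 of the 12 fits that each left out 1 library. The change of Eda2r at day 6 after 7 Gy photons was 0.78 ± 0.20 (adjusted p = 0.0594). It was 0.78 ± 0.19 without the shallow library and passed (adjusted p = 0.0292).

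The death receptors Fas and Tnfrsf10b were measured too. Fas, the receptor of Fas ligand, had few counts, 0 to 13.4 CPM. At day 2 of the photon series it stood at 3.97, 2.99 and 0.519 CPM in the controls, the last of these from 1 count, and at 7.40, 8.14 and 11.98 CPM after 15 Gy. The changes at 7 and 15 Gy photons were 1.72 ± 0.40 and 1.72 ± 0.40 (adjusted p = 0.0338 and 0.0269), the first with an adjusted p of 0.0516 under the mouse block. Without that control they were 1.36 ± 0.34 and 1.36 ± 0.34, and still passed (adjusted p = 0.0399 and 0.0215). With 15 Gy at day 6 the photon change was 0.43 ± 0.31, and the proton changes were 0.67 ± 0.35 at day 2 and 0.27 ± 0.34 at day 6. Tnfrsf10b, the mouse TRAIL receptor, ran from 6.75 to 47.2 CPM and lay above all controls in 8 of the 12 comparisons. Its changes at 15 Gy were 0.82 ± 0.33, 0.72 ± 0.21, 0.72 ± 0.23 and 0.70 ± 0.26, photons first, and its lowest adjusted p was 0.053. Without the shallow 4 Gy library, the photon changes of Tnfrsf10b at day 6 passed at 7 and 15 Gy, at 0.76 ± 0.20 and 0.71 ± 0.20 (adjusted p = 0.042 and 0.0358). Pidd1 was at 0 to 4.10 CPM, and its photon changes at 15 Gy were 1.28 ± 0.44 and 0.81 ± 0.43, neither past the threshold.

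Zmat3 encodes a zinc-finger protein that binds RNA and regulates splicing. In the photon libraries it stood at 143, 188 and 301 CPM in the controls, 262, 219 and 265 CPM after 4 Gy, 302, 266 and 245 CPM after 7 Gy and 314, 288 and 264 CPM after 15 Gy at day 2. Photon values on day 6 were 203, 224 and 155 CPM in the controls, 209, 199 and 297 CPM after 4 Gy, 259.9, 279.6 and 217 CPM after 7 Gy and 246, 260.2 and 223 CPM after 15 Gy. No photon group separated from its controls. In the proton libraries it stood at 158, 148 and 172 CPM in the controls, 232, 237 and 230.2 CPM after 4 Gy, 249, 320.0 and 238 CPM after 7 Gy and 222, 246 and 239 CPM after 15 Gy at day 2. Proton values on day 6 were 129, 116 and 104 CPM in the controls, 158, 139 and 148 CPM after 4 Gy, 184, 227 and 208 CPM after 7 Gy and 233, 190.0 and 274 CPM after 15 Gy. All irradiated proton libraries exceeded their controls. Zmat3 rose by 0.57 ± 0.13 and 1.00 ± 0.14 after 15 Gy protons (adjusted p = 0.00983 and 0.000103), and its photon changes were 0.46 ± 0.21 and 0.33 ± 0.17. Its call at day 2 after 4 Gy protons, 0.55 ± 0.13 (adjusted p = 0.0493), passed in 2 of the 12 fits that each left out 1 library. Without the photon control that stood apart, which held 301 CPM, the day 2 changes after 7 and 15 Gy photons were 0.71 ± 0.15 and 0.79 ± 0.15 and passed (adjusted p = 0.0171 and 0.00441). The difference between the proton and photon changes of Zmat3 at 15 Gy did not pass at either day (0.13 ± 0.26 and 0.72 ± 0.23, adjusted p = 1 and 0.0731).

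Aen encodes a nuclease that degrades DNA and RNA in apoptosis. Photon libraries of Aen gave 9.65, 12.7 and 10.9 CPM in the controls, 13.5, 14.9 and 16.4 CPM after 4 Gy, 17.01, 12.2 and 14.6 CPM after 7 Gy and 22.6, 16.9 and 13.7 CPM after 15 Gy at day 2. On day 6 they gave 13.5, 19.8 and 14.5 CPM in the controls, 16.1, 16.6 and 3.71 CPM after 4 Gy, 24.4, 23.2 and 19.7 CPM after 7 Gy and 27.1, 27.4 and 22.9 CPM after 15 Gy. The groups overlapped at 7 Gy at day 2 and at 4 and 7 Gy at day 6. Proton libraries of Aen gave 7.89, 7.99 and 12.3 CPM in the controls, 12.4, 13.9 and 13.9 CPM after 4 Gy, 20.5, 13.9 and 14.6 CPM after 7 Gy and 15.4, 15.4 and 14.5 CPM after 15 Gy at day 2. All of those irradiated lay above their controls. On day 6 they gave 13.5, 8.28 and 7.93 CPM in the controls, 17.03, 12.6 and 16.1 CPM after 4 Gy, 18.7, 21.2 and 19.99 CPM after 7 Gy and 18.7, 17.5 and 22.7 CPM after 15 Gy. Aen rose at day 6 after 15 Gy photons, by 0.74 ± 0.20, and after 7 and 15 Gy protons, by 1.00 ± 0.24 and 0.97 ± 0.24 (adjusted p = 0.0449, 0.00974 and 0.00681). The photon call passed in 3 of the 12 fits that each left out 1 library and not by DESeq2 (adjusted p = 0.107). Ei24 encodes a membrane protein of the endoplasmic reticulum. Its photon levels were 97.7, 93.1 and 46.2 CPM in the controls, 105, 115 and 124 CPM after 4 Gy, 121, 114 and 109 CPM after 7 Gy and 121, 135 and 115 CPM after 15 Gy at day 2. The photon levels of day 6 were 74.9, 93.6 and 81.2 CPM in the controls, 98.5, 104 and 40.9 CPM after 4 Gy, 106, 131 and 97.7 CPM after 7 Gy and 114, 119.7 and 109 CPM after 15 Gy. The control that stood apart and the shallow 4 Gy library were the lowest of each day. Its proton levels were 63.2, 67.04 and 51.9 CPM in the controls, 96.996, 97.1 and 92.4 CPM after 4 Gy, 103, 66.2 and 82.8 CPM after 7 Gy and 111, 105 and 125 CPM after 15 Gy at day 2. The proton levels of day 6 were 73.4, 63.3 and 59.2 CPM in the controls, 85.5, 65.6 and 75.005 CPM after 4 Gy, 92.2, 82.6 and 73.2 CPM after 7 Gy and 90.9, 91.4 and 84.3 CPM after 15 Gy. The proton groups overlapped at 7 Gy at day 2 and at 4 and 7 Gy at day 6. Ei24 rose after 15 Gy protons, by 0.90 ± 0.16 at day 2 and 0.44 ± 0.14 at day 6 (adjusted p = 0.00119 and 0.0314), and its 15 Gy photon changes were 0.63 ± 0.21 and 0.47 ± 0.18. Without the shallow library Ei24 also passed at day 6 after 7 and 15 Gy photons, at 0.44 ± 0.12 and 0.47 ± 0.12 (adjusted p = 0.0453 and 0.0207). Exons of Ei24 overlap an antisense gene.

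Apaf1, the scaffold of the apoptosome, rose at day 6 after 15 Gy photons, by 0.94 ± 0.25 (adjusted p = 0.0448), from 16.8, 8.55 and 20.7 CPM to 36.4, 27.9 and 28.3 CPM. That call passed in 2 of the 12 fits that each left out 1 library, and neither by DESeq2 (adjusted p = 0.0514) nor with the mouse number as a block (adjusted p = 0.0518). The change of Apaf1 at day 6 after 7 Gy photons was 0.87 ± 0.25 (adjusted p = 0.0973). It was 0.87 ± 0.21 without the shallow library and passed (adjusted p = 0.0288). At day 6 after 15 Gy protons the change of Apaf1 was -0.18 ± 0.36. Phlda3, whose product blocks the kinase Akt, ran from 80.9 to 323 CPM, the highest value again in the shallow library, and its lowest adjusted p was 0.0544, at 0.41 ± 0.15 after 15 Gy protons at day 6. Triap1, a small mitochondrial protein gene that opposes apoptosis, ran from 26.002 to 82.6 CPM, with changes from -0.18 to 0.30 and no adjusted p under 0.436.

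Whether the targets scaled with dose was tested by setting 15 Gy against 4 Gy directly. At day 6 after protons 5 genes were higher at 15 Gy and 1 lower, where 6.7% of all genes passed. Mdm2 differed by 0.80 ± 0.19, Zmat3 by 0.65 ± 0.14, Eda2r by 0.64 ± 0.17, Ak1 by 0.58 ± 0.17 and Ccng1 by 0.48 ± 0.12, and Plk3 by -0.75 ± 0.20 (adjusted p from 0.0132 to 0.045). With the mouse number as a block Ak1 did not pass (adjusted p = 0.0678). Leaving out the 4 Gy library of mouse 2 left none of the 6 past the threshold. In the other 3 settings no target passed in edgeR's test, where 0.263% (photons, day 2), 0.141% (photons, day 6) and 0.123% (protons, day 2) of all genes passed. At an unadjusted p under 0.05 the counts there were 5 of 32, 11 of 32 and 3 of 31 targets. Among all genes they were 1003 of 11039, 951 of 11308 and 1027 of 10529. By DESeq2 with adjustment, 1, 0 and 1 of the targets passed. Without the day 2 photon control that stood apart, Mdm2 passed in edgeR's test at day 2, by 0.64 ± 0.11 (adjusted p = 0.0186), where 0.784% of all genes passed. The difference between 15 and 4 Gy in those settings was 0.65 ± 0.17, 0.64 ± 0.19 and 0.57 ± 0.13 for Mdm2 and -0.03 ± 0.11, 0.19 ± 0.13 and -0.06 ± 0.16 for Ercc5.

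Photons and protons were compared by the difference of their changes from control, proton minus photon. At 15 Gy and day 6 this difference passed for 2 of the 32 genes, both lower, where 4.41% of all genes passed in either direction. That count is near the share of all genes. For Trp53 the change was 0.31 ± 0.13 after photons and -0.67 ± 0.19 after protons, a difference of -0.93 ± 0.23 (adjusted p = 0.0231). For Plk2 it was 0.57 ± 0.13 and -0.45 ± 0.17, a difference of -0.98 ± 0.23 (adjusted p = 0.0203). The Trp53 difference passed in 17 of the 24 fits that each left out 1 library and the Plk2 difference in 19 of the 24. Neither passed without photon control mouse 1, photon 15 Gy mouse 1, proton control mouse 2 or proton control mouse 3 of day 6. In the controls of day 6, each series scaled on its own, Trp53 held 29.8, 24.8 and 26.4 CPM in the photon and 39.5, 42.6 and 45.99 CPM in the proton controls, and Plk2 held 81.8, 78.3 and 83.5 and 158, 196 and 214 CPM. The part of these starting levels in the differences was not tested.

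For the targets that rose most regularly the difference at 15 Gy did not pass at either day. Ercc5 is among them, with day 6 changes of 0.65 ± 0.13 after photons and 1.17 ± 0.17 after protons. The 5 repair genes, Ercc5 included, had a median difference of 0.57 at 15 Gy and day 6 (-0.03 to 0.64). Of the 5 differences 4 were positive. For the other regular risers named here the difference is given with its interval, which shows what sizes remain possible. At day 6 it was 0.25 ± 0.28 for Mdm2 (95% interval -0.31 to 0.81), -0.10 ± 0.18 for Ccng1 (-0.45 to 0.25), -0.19 ± 0.23 for Ak1 (-0.64 to 0.26), -0.09 ± 0.19 for Trp53inp1 (-0.47 to 0.29) and 0.41 ± 0.29 for Eda2r (-0.16 to 0.97). At day 2 it was -0.18 ± 0.21 for Mdm2 (-0.59 to 0.23), -0.15 ± 0.15 for Ccng1 (-0.44 to 0.14) and -0.52 ± 0.21 for Ak1 (-0.93 to -0.11), the last with an unadjusted interval below 0 and an adjusted p of 0.823. In the other 5 settings (4 and 7 Gy at both days and 15 Gy at day 2) none of the targets passed by edgeR or DESeq2, and 0% of all genes by edgeR. At an unadjusted p under 0.05 the 32 targets numbered 1, 3 and 1 at day 2 (4, 7 and 15 Gy) and 1 and 1 at day 6 (4 and 7 Gy). In the same order, all genes numbered 311, 1018 and 571 of 11116 at day 2 and 454 and 1145 of 11310 at day 6. At 15 Gy and day 6, 8 of the 32 targets and 2452 of 11310 genes had an unadjusted p under 0.05.

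**Figure D5:**
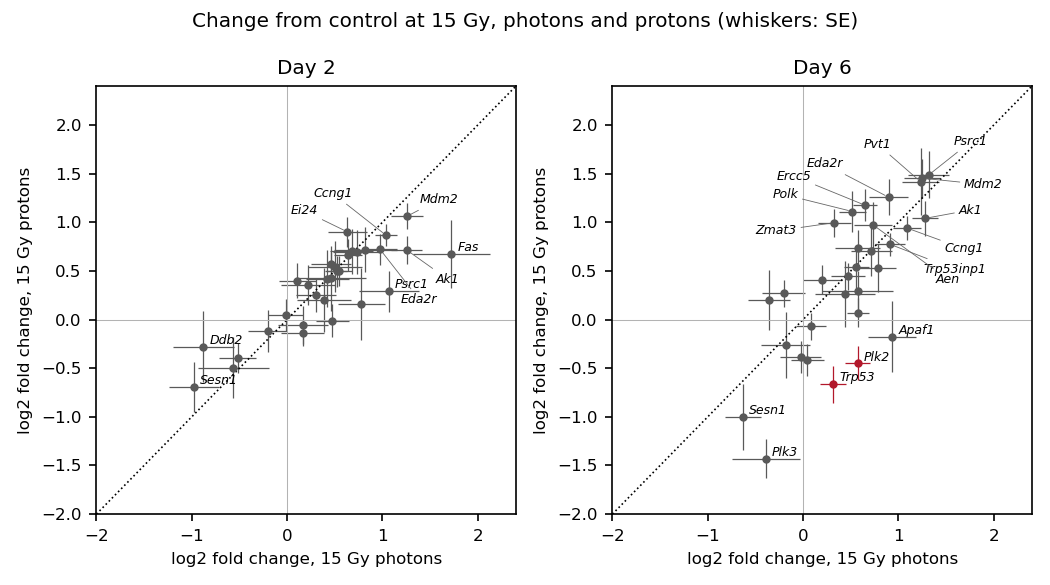
Change from control at 15 Gy after photons (x axis, log2 fold change) and protons (y axis, log2 fold change) for each tested p53 target at days 2 and 6; whiskers are SE, the dotted line marks equal change, and red marks genes whose difference passed. Points lie on both sides of the dotted line, and Trp53 and Plk2 lie below it at day 6, with differences of -0.93 and -0.98.

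The collection days were compared by the difference of the changes, day 6 minus day 2. After 15 Gy protons this passed for 2 of the targets, both higher, where 2.64% of all genes passed in either direction. For Polk the change was -0.01 ± 0.17 at day 2 and 1.11 ± 0.21 at day 6, a difference of 1.13 ± 0.27 (adjusted p = 0.0233), and for Psrc1 0.29 ± 0.21 and 1.49 ± 0.24, a difference of 1.20 ± 0.32 (adjusted p = 0.0426). These passed in 19 of the 24 and 13 of the 24 fits that each left out 1 library, and DESeq2 gave no adjusted p for the Psrc1 difference. In the proton controls, day 6 against day 2, Psrc1 fell by 0.90 ± 0.25 (adjusted p = 0.0124) and Polk differed by -0.57 ± 0.20 (adjusted p = 0.0541). In the other 5 settings no target passed in edgeR's or DESeq2's test, where 0%, 0% and 0.104% (4, 7 and 15 Gy photons) and 0.0716% and 0.501% (4 and 7 Gy protons) of all genes passed. There 2, 1, 3, 4 and 6 targets had an unadjusted p under 0.05. Of all genes, 609, 585 and 919 of 11578 (photons) and 799 and 1060 of 11177 (protons) did so. Mdm2, Ccng1 and Ak1 differed between the days by 0.00 ± 0.26, 0.06 ± 0.17 and 0.04 ± 0.21 after 15 Gy photons and by 0.39 ± 0.25, 0.08 ± 0.16 and 0.32 ± 0.22 after 15 Gy protons.

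Culture time alone, day 6 against day 2 in the unirradiated organoids, also moved some of the targets. In the photon series 7 of 32 genes were higher and none lower, against 14.7% of all genes in either direction. In the proton series 6 were higher and 3 lower of 31 tested, against 17.4%. Without the day 2 photon control that stood apart, 4 of 32 were higher and none lower, against 14.1%. That count is near the share of all genes. Gdf15 rose most. With each day scaled on its own it went from 6.25, 8.97 and 15.6 to 38.1, 60.8 and 41.8 CPM in the photon controls (2.22 ± 0.29) and from 9.02, 8.44 and 4.45 to 35.96, 36.1 and 33.3 CPM in the proton controls (2.15 ± 0.23). Btg2, Plk2 and Ephx1 rose in both series, by 0.99 ± 0.24, 0.65 ± 0.16 and 0.49 ± 0.13 in the photon controls and by 0.73 ± 0.15, 1.76 ± 0.19 and 0.44 ± 0.16 in the proton controls. Polk, Rrm2b and Fas rose in the photon controls, and none of these passed without the day 2 control that stood apart, although Rrm2b did when that control and the shallow 4 Gy library were both left out (adjusted p = 0.0391). Gadd45a and Plk3 rose in the proton controls, by 1.24 ± 0.25 and 1.03 ± 0.26, and Ercc5, Psrc1 and Zmat3 fell. Mdm2, Ccng1, Ak1, Eda2r and Trp53inp1 passed in neither series, with differences of -0.13 to 0.18 in the photon controls and -0.36 to 0.05 in the proton controls. All 8 markers of dividing cells were lower at day 6 in both series. The 4 basal duct markers summed to 8799 to 13514 CPM at day 2 and 4861 to 5690.4 CPM at day 6 in the photon controls, and to 10434 to 13310.2 and 6117 to 7194 CPM in the proton controls. The part of these shifts in the changes with culture time was not tested.

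A list of 22 further genes of the pathway, 13 more targets and 9 regulators, was read beside these, and 21 of them could be tested. At 15 Gy, 3 were higher and none lower at day 2 after photons, none higher and 1 lower at day 6, 2 higher and none lower at day 2 after protons, and 7 higher and none lower at day 6, where 4.96%, 5.29%, 8.31% and 24.2% of all genes passed in either direction. Their median change was 0.20, 0.15, 0.20 and 0.31 in that order. Cdkn1a, the cyclin-dependent kinase inhibitor p21, stood at 465, 809.8 and 635 CPM in the photon controls of day 2 and 1337, 1235 and 1109.9 CPM after 15 Gy, and rose by 0.95 ± 0.17, with 0.48 ± 0.16 at day 6 (adjusted p = 0.005 and 0.109). After 15 Gy protons Cdkn1a rose by 0.66 ± 0.14 and 0.60 ± 0.16 (adjusted p = 0.00629 and 0.00986). Bbc3, which encodes the death protein Puma, rose by 0.81 ± 0.13 at day 2 after 15 Gy photons and by 0.92 ± 0.18 at day 6 after 15 Gy protons, and its other 15 Gy changes were 0.35 ± 0.21 and 0.34 ± 0.16. Rps27l, a ribosomal protein gene that p53 induces, rose at day 2 by 0.66 ± 0.14 after photons and 0.46 ± 0.12 after protons. The other genes higher at day 6 after 15 Gy protons were the targets Tigar and Fbxw7 and the regulators Mdm4, Atm and Ep300, and Sfn was the gene lower at day 6 after 15 Gy photons.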

How the data were processed

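RNA of 48 organoid libraries was measured by QuantSeq 3′ sequencing (Lexogen kit), per the labels. The authors deposited 1 table of raw counts per library, with 47643 gene identifiers and 5 summary lines; the submitters' processing notes name the build GRCm39 and edgeR, and the sources used here do not give the aligner, counter, annotation version or strand setting. The summary line for reads in no gene took 7.881% to 12.07% of the counts and was left out. The deposited CPM tables were not used. Symbols came from a GENCODE gene table.

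Counts were tested as deposited with edgeR 4.0.16 (R 4.3.3): filterByExpr, trimmed-mean (TMM) scaling and the quasi-likelihood test, adjusted by Benjamini-Hochberg over all genes of each of 30 comparisons. The 12 libraries of a radiation type and day formed 1 fit for doses against control and for 15 against 4 Gy, and 24 libraries formed a fit for proton minus photon and for day 6 minus day 2. Alternatives were library size alone, DESeq2 1.42.0, no filter, the mouse number as a block, the 6 compared libraries alone and each library left out; leaving out both libraries that stood apart was added after seeing the data. The scripts were checked on simulated counts.

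The members and lists were chosen with earlier results of these data known. Values in every library are given for genes that passed at 15 Gy in at least 2 of the 4 fits, for Trp53 and for genes that passed in a difference between radiation types or days. The other pathway genes given with values are those that passed in at least 2 of the 4 comparisons at 15 Gy. The labels number mice 1 to 3 in every group, read here as the same animals within a radiation type; in the photon fits of days 2 and 6 and the proton fits of days 2 and 6 the deviations of same-numbered libraries correlated by 0.0788, 0.0783, 0.0814 and -0.0273 on average. Whether mice were shared between photons and protons is not stated. Total counts ran from 314409 to 4745719, so genes of a few CPM are the least precise, above all in the shallowest library.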

Additional observations from a re-analysis of the deposited data

Results flagged for a closer look

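Of the p53 targets, 4 results differed between radiation types or days by a test of the difference itself in edgeR. Trp53 (-0.93) and Plk2 (-0.98) had a lower log2 change from control after protons than after photons at 15 Gy and day 6, 2 of 32 targets where 4.41% of all genes passed. That count is near the share of all genes. The Trp53 and Plk2 differences passed in 17 and 19 of the 24 fits that each left out 1 library. Neither passed without photon control mouse 1, photon 15 Gy mouse 1, proton control mouse 2 or proton control mouse 3 of day 6. Polk (1.13) and Psrc1 (1.20) had a higher log2 change at day 6 than at day 2 after 15 Gy protons, 2 of 31 tested targets where 2.64% of all genes passed. They passed in 19 and 13 of the 24 fits that each left out 1 library. DESeq2 gave no adjusted p for the Psrc1 difference.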

How the results depend on the processing

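Of 116 calls of p53 targets over the 30 comparisons, 104 held with library size alone as the scale, 108 with DESeq2, 111 without the filter, 108 with the replicate block and 54 in every fit that left out 1 library, and no call changed sign in these alternatives. With library size alone the median of all genes shifted by over 0.1 among the proton day 6 changes (0.102, 0.185 and 0.137 at 4, 7 and 15 Gy) and in differences that use them. Genes of few counts, such as Fas, Pidd1 and Ddb2, are limited by depth.

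Counts of targets that passed moved by over 1.5 times as follows. With library size alone, 4 Gy photons at day 6 gave 2 (4 with TMM). With DESeq2, 4 Gy photons at day 2 gave 5 (3 with edgeR), and 15 against 4 Gy at day 2 gave 1 for photons and 1 for protons (0 with edgeR). Without the filter, 4 Gy photons at day 2 gave 6, 7 Gy photons at day 6 gave 12, 4 and 15 Gy protons at day 2 gave 4 and 11, and 4 Gy protons at day 6 gave 6. Also without the filter, 15 against 4 Gy gave 1 and 2 for photons at days 2 and 6 and 1 for protons at day 2, and day 6 minus day 2 gave 1 after 4 Gy photons and 1, 1 and 4 after 4, 7 and 15 Gy protons. In fits of the 6 compared libraries alone, photons at day 2 gave 0, 2 and 4 at 4, 7 and 15 Gy and 1 for 15 against 4 Gy, and 4 Gy photons at day 6 gave 0. In these small fits protons at day 2 gave 1, 3 and 12, 4 Gy protons at day 6 gave 5, and 15 against 4 Gy protons at day 6 gave 2. With the replicate block, which pairs libraries of the same mouse number, 4 and 7 Gy protons at day 2 gave 4 and 8, and apart from the calls named in the report as lost the block ended no other.

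Leaving out 1 library gave these ranges, with the libraries that moved a count by over 1.5 times. Photons at day 2 ranged from 0 to 5 at 4 Gy (control mice 1 and 2, 4 Gy mice 1 and 3), 2 to 9 at 7 Gy (control mouse 2, each 7 Gy mouse), 5 to 12 at 15 Gy (control mouse 2, 15 Gy mice 1 and 3) and 0 to 1 for 15 against 4 Gy (control mouse 3). Photons at day 6 ranged from 1 to 6 at 4 Gy (each control, 4 Gy mice 1 and 2, 7 Gy mouse 2, 15 Gy mouse 1), 4 to 14 at 7 Gy (control mouse 1, 4 Gy mouse 3, 7 Gy mouse 2) and 7 to 19 at 15 Gy (control mouse 1, 15 Gy mouse 2). Protons at day 2 ranged from 1 to 6 at 4 Gy (every library but 7 Gy mice 1 and 3), 2 to 8 at 7 Gy (each control, 4 Gy mouse 2, 7 Gy mouse 1, 15 Gy mouse 3), 5 to 11 at 15 Gy (4 and 7 Gy mouse 2) and 0 to 1 for 15 against 4 Gy (7 Gy mouse 2). Protons at day 6 ranged from 0 to 3 at 4 Gy (each control, 4 Gy mice 1 and 3), 9 to 16 at 7 Gy (control mouse 2), 13 to 18 at 15 Gy (none) and 0 to 9 for 15 against 4 Gy (each 4 Gy mouse, 15 Gy mouse 3). Proton minus photon at 15 Gy and day 6 ranged from 0 to 3 (photon control mice 1 and 2, photon 15 Gy mice 1 and 3, proton control mice 2 and 3, proton 15 Gy mice 2 and 3). Day 6 minus day 2 after 15 Gy protons ranged from 0 to 4 (each control and 15 Gy mouse and 4 Gy mouse 2 of day 2, control mice 1 and 2, 7 Gy mouse 2 and 15 Gy mouse 3 of day 6). Culture time ranged from 4 to 7 in the photon controls (day 2 mouse 3, day 6 mouse 1) and from 6 to 10 in the proton controls (none). The causes were not tested.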
